A study of Triticum aestivum with 21 samples.

Results

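The last step of anther development measured in this series, from immature pollen (IP) to mature anthers (MAN), was examined in bread wheat, Triticum aestivum cv. Chinese Spring. It rests on 6 of the 21 GeneChip Wheat Genome Arrays of the series, namely the 3 arrays labelled mature anthers and the 3 labelled immature pollen, and on all 61179 probe sets that remained once the 111 control rows were set aside. Both stages, like the earlier ones, came from whole anthers of glasshouse plants grown at 23 °C by day and 15 °C by night with a 14 h photoperiod. At least 25 anthers were pooled for a stage, and the RNA was amplified in 2 rounds. Of the earlier stages, PM precedes meiosis, LP covers its first prophase from leptotene up to pachytene, DA runs from diplotene until the first anaphase, TT spans both telophases and T is the tetrad stage. The 3 arrays of a stage are technical replicates of its pool, so every SD, SE and p-value below measures the spread between arrays and not between plants. A whole anther holds wall, tapetum and pollen, and fewer cells of a type cannot be told apart from less RNA per cell.

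A level is the log2 of the deposited RMA intensity of a probe set on an array, and a change is the mean level of MAN minus that of IP. A level above 5 was taken as expressed, and a change that starts or ends below 5 is a lower bound on the change. In the anther the tapetum is the innermost wall layer, which feeds the microspores and lays down material of the pollen wall before it degenerates. Pollen grains divide, fill with starch and dry out as they mature. They are known to store transcripts that serve germination and the growth of the pollen tube, for which actin filaments, wall loosening and proton pumping are needed.

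Arrays of MAN had a Pearson r of 0.823 to 0.832 with arrays of IP across the 61179 probe sets, against 0.993 between MAN arrays and 0.989 to 0.995 between IP arrays. The r is taken over genes, which do not vary independently. IP replicate 1 stood apart from the other IP arrays. Its brightest probe set reached 14.32, against 15.19 on both others, its 27 hybridization controls had a mean level of 8.69 against 10.28 to 10.36, and its 18S rRNA control lay at 8.55 against 13.19 to 13.78. On the MAN arrays these controls reached 11.08 to 11.30, more than on the 15 arrays of PM to T, at 9.90 to 10.64. The lower quartile of the MAN arrays (4.46 to 4.48) lay above that of IP replicates 2 and 3 (4.24 to 4.29), while the upper quartile (7.43 to 7.45) lay below theirs (7.72 to 7.82). The part of these array differences in the counts below was tested only through the other scalings and by leaving out arrays.

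The stage labels were set against marker transcripts. The 4 probe sets of the raftins, proteins of the tapetum and the microspore wall, had a summed level of 14.97 to 15.41 in IP and of 10.14 to 10.60 in MAN, and all 4 were above 5 in both stages. Those of the meiotic genes ASY1, DMC1, PHS1 and MSH4 summed to 10.93 to 11.20 in IP and to 8.62 to 8.78 in MAN. The 8 probe sets of photosynthesis, a mark of the green anther wall, summed to 14.01 to 14.28 in IP and to 10.17 to 10.33 in MAN. For profilin, which is abundant in pollen, the sum was 13.28 to 13.88 in IP and 14.01 to 14.05 in MAN. The 11 probe sets of gliadins and glutenins, endosperm proteins that an anther lacks, summed to 8.19 to 8.33 and 8.60 to 8.70. Of those 11, 3 had means above 5 in IP and 4 in MAN, so a level above 5 does not by itself establish expression. Probe sets of beta-expansins, group 1 pollen allergens and polcalcins were looked for by symbol and none was found. The summed levels of the tapetum, meiocyte and wall markers were thus lower on every MAN array than on any IP array, though not every wall marker was, and their part in the losses described below was not tested.

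Between IP and MAN most of the probe sets were called different, many of them from a level below 5 in IP. In limma 39313 of 61179 probe sets, or 64.3%, differed at an adjusted p under 0.05, with 23637 higher in MAN (38.6%) and 15676 lower (25.6%). The gains were more numerous but smaller. Of the probe sets called higher, 9421 changed by less than 0.5 on the log2 scale, against 2387 of those called lower. With at least 2-fold required, the order turned, and 4876 probe sets were higher (7.97%) and 8859 lower (14.5%). Changes of at least 16-fold numbered 695 upwards and 782 downwards, and those of at least 256-fold numbered 155 upwards and 40 downwards. The 3 MAN arrays lay entirely above the 3 IP arrays for 23322 probe sets (38.1%) and entirely below for 15292 (25.0%). Over all probe sets the median change was 0.17 and the median SE 0.13. Of the calls, 11201 were of probe sets below 5 in IP, and 9318 of these were gains of less than 2-fold. A fit limited to probe sets with a mean above 5 in IP or MAN called 17146 higher and 14937 lower.

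The direction of the small changes depended on how the arrays were scaled. With each array centred on its median, 17973 probe sets were higher and 17325 lower. Each array was instead shifted to an equal mean of its hybridization controls (called spike scaling below), which were brightest in MAN and dimmest on IP replicate 1, at 8.69. The median change of all probe sets then moved from 0.17 to -1.25, and 1854 were higher and 53290 lower. IP replicate 1 enlarged this shift, and with it the turns of sign given below, and spike scaling without that array was not run. Small gains of named probe sets are given below with their value under spike scaling where it turned their sign, and the class medians of 0.23 and 0.29 given next became -1.20 and -1.11 under it. At 2-fold or more, the median-centred arrays gave 4243 higher and 9684 lower, and spike scaling gave 1517 and 43630.

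**Figure D1:**
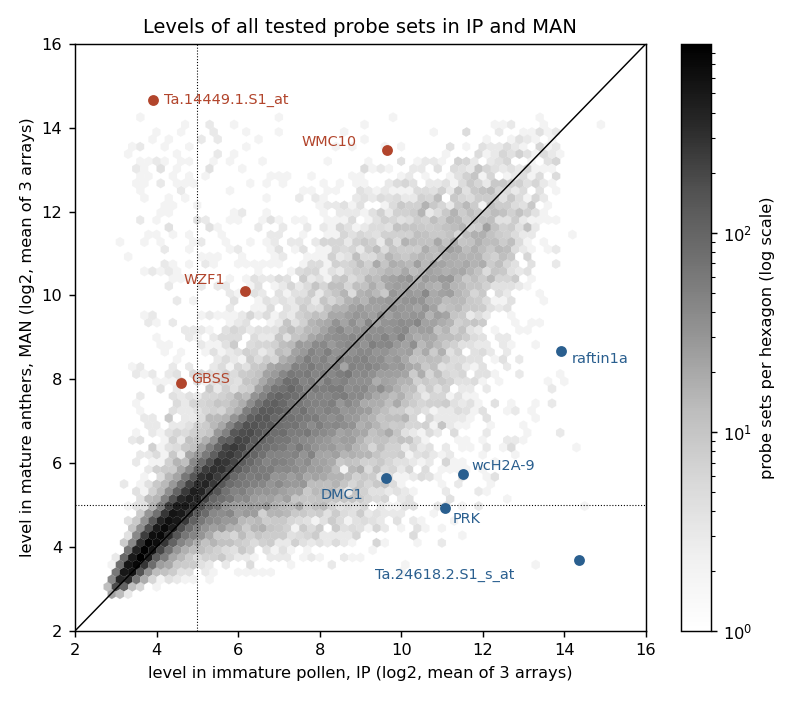
Mean level (log2) of each of the 61179 probe sets in IP (x axis) and MAN (y axis), with the number of probe sets per hexagon in grey on a log scale, equal levels on the diagonal and the boundary of expression at 5 dotted. Red points name probe sets higher in MAN and blue points those lower, and the cloud bends below the diagonal from a level of about 7 in IP, while scattered probe sets below 5 in IP reach levels of up to 15.03 in MAN.

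Gains and losses sorted strongly by the level that a transcript had in immature pollen. Among the 24496 probe sets below 5 in IP, 10379 were higher in MAN (42.4%) and 822 lower (3.36%), with a median change of 0.23. Only 1061 of the gains (4.33% of the class) reached 2-fold, and 20194 probe sets of the class (82.4%) were still below 5 in MAN. In the class of 5 to 7, with 17058 probe sets, 8324 were higher (48.8%) and 3261 lower (19.1%), and the counts of at least 2-fold were 1649 and 1218. From a level of 7 upwards losses outnumbered gains. Between 7 and 9 the 2-fold counts were 1254 higher and 3204 lower of 10192 probe sets, and between 9 and 11 they were 746 and 2779 of 6370. Of the 3063 probe sets at 11 or more in IP, 469 were higher (15.3%) and 2209 lower (72.1%), and at least 2-fold changes were 166 gains (5.42%) and 1604 losses (52.4%). The median change went from 0.29 in the class of 5 to 7 to -0.36, -0.80 and -1.07 in the 3 classes above it.

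Most of the losses of bright transcripts did not take them to silence. Of the 1604 probe sets that started at 11 or more and fell at least 2-fold, 66 ended below 5, and of the 2779 that started between 9 and 11, 133 did. In the class of 5 to 7, where a smaller fall is enough to end below 5, it was 743 of 1218. At the other end, 190 probe sets below 5 in IP reached 11 or more in MAN, as did 178 of the class of 5 to 7 and 248 of the class of 7 to 9.

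The floor of the arrays limits losses in the lowest class, whose median IP level was 4.05, while the lowest MAN mean of any probe set was 2.81. Taking the class from other arrays does not remove that limit. Class and change also share the IP arrays, which by itself would tilt the gains to the low classes and the losses to the high ones. With the class taken from the T arrays, which enter neither side of the comparison, the 2-fold counts from the lowest class to the highest were 1032, 1638, 1270, 737 and 199 higher, and 242, 1385, 3070, 2597 and 1565 lower. The medians were then 0.22, 0.29, -0.29, -0.73 and -1.0. Quantile normalization of the arrays brought the median of the lowest class to 0.06 and that of the class of 7 to 9 to -0.06, and left the highest class at -0.97.

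**Figure D2:**
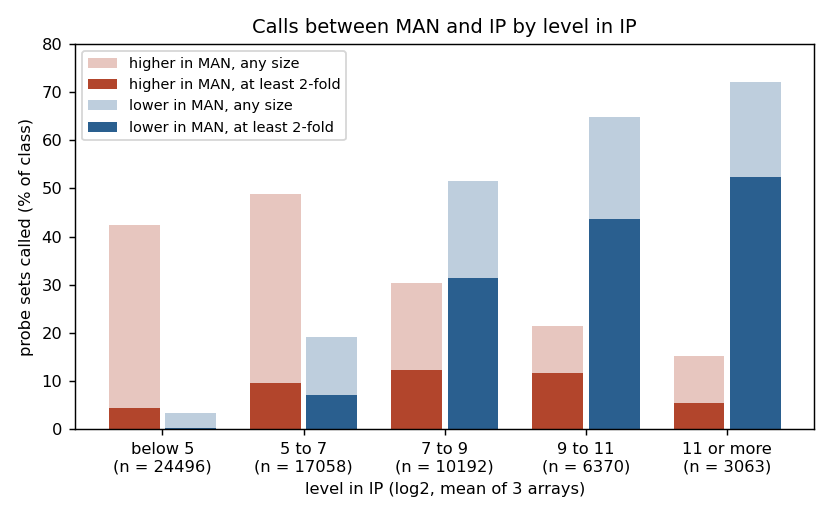
Share of probe sets (% of the class) called higher (red) or lower (blue) in MAN than in IP, by mean level in IP (log2), with all calls in pale and calls of at least 2-fold in full colour and n the number of probe sets in a class. The share lower at least 2-fold climbs from 0.22% below 5, where the floor of the arrays limits losses, to 52.4% at 11 or more. The share higher at least 2-fold stays between 4.33% and 12.3%.

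The highest and the lowest change of each class show what these shares hold. Starting below 5, Ta.14449.1.S1_at had levels of 4.28, 3.84 and 3.64 on the IP arrays and of 14.70, 14.63 and 14.66 on the MAN arrays, a rise by at least 10.74 (limma SE 0.141, adjusted p 7.5e-28). It is the largest gain of all tested probe sets. In the class of 5 to 7 TaAffx.12419.2.S1_at went from 4.87, 5.19 and 5.14 to 14.21, 14.34 and 14.29 (change 9.21). Ta.4344.1.A1_at, of the class of 7 to 9, went from 6.85, 7.11 and 7.10 to 14.31, 14.25 and 14.38 (change 7.30). Further up, Ta.4280.1.S1_a_at rose from 9.08, 8.84 and 9.14 to 14.14, 14.19 and 14.25 (change 5.17), and Ta.5403.1.S1_at from 10.95, 11.17 and 11.26 to 13.95, 13.94 and 14.02 (change 2.84). All 5 ended at 13.94 or more on every MAN array, with no overlap between the stages. All but Ta.5403.1.S1_at lack a gene symbol, and that one has a locus symbol with no name, whose other probe sets, Ta.25119.1.S1_at and Ta.25119.1.S1_x_at, were below 4 on all 6 arrays and not called (0.04 and 0.29, or -1.38 and -1.13 with spike scaling). The second was called without MAN replicate 2 (0.39).

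Losses ran the other way, and the deepest of each class is given from the highest class down. Ta.24618.2.S1_s_at stood at 13.79, 14.61 and 14.67 in IP and at 3.66, 3.67 and 3.73 in MAN, a fall by at least 10.67 (limma SE 0.184, adjusted p 1.7e-25), and the lower IP value is that of replicate 1. In the class of 9 to 11 Ta.28479.1.S1_at went from 10.76, 10.66 and 11.01 to 3.36, 3.56 and 3.54. The lowest of the class of 7 to 9, Ta.4864.1.S1_a_at, went from 8.83, 8.38 and 9.11 to 3.64, 3.41 and 3.52. For TaAffx.53782.2.S1_at, of the class of 5 to 7, the levels were 7.02, 6.71 and 6.78 against 3.56, 3.22 and 3.36, and for TaAffx.128795.16.S1_at, below 5 in both stages, 4.89, 4.85 and 4.90 against 2.69, 2.84 and 3.10. Each of these 5 ended below 4 on all MAN arrays, near the floor, so the size of its fall was set largely by its starting level.

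A set of 1912 probe sets was gained outright, with all IP arrays below 5, all MAN arrays above 5 and a call, and 1108 were lost outright by the reverse rule. The gained ones rose by a median of 0.86, and 809 of them by at least 2-fold, so that most crossed the boundary by a small step. The lost ones had a median change of -2.12, and 925 of them by at least 2-fold. Both counts move with the boundary. With the boundary at 4 they were 1076 and 287, with it at 6 they were 2262 and 2483, and 196 and 139 probe sets lay at least 1 past the boundary on both sides. With spike scaling 35 were gained and 5966 lost.

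The earlier stages of these sets were set beside those of all probe sets on the same side of the boundary in IP. Of the 1912 gained, 1436 (75.1%) had been above 5 in none of PM, LP, DA, TT and T, and 63 had been above 5 in all of them. Of all 22536 probe sets with the 3 IP arrays below 5, 94.6% had been above 5 in none. Of the 1108 lost, 828 (74.7%) had been above 5 in all 5 earlier stages, and 116 in none, against 97.0% above 5 in all 5 among the 34767 probe sets with the 3 IP arrays above 5. Both shares thus lay below those of all such probe sets, a difference that was not tested. The comparison was not matched for level. The gained set had a median IP level of 4.63, nearer the boundary than the 4.05 of the class below 5. The 308 gained at least 16-fold had a median level of 11.45 in MAN and medians of 4.05 to 4.12 in the other stages, and 280 of them had been above 5 in no earlier stage. The 218 lost at least 16-fold had a median of 9.59 in IP, of 8.63 to 8.97 in the earlier stages and of 4.21 in MAN, and 173 had been above 5 throughout.

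**Figure D3:**
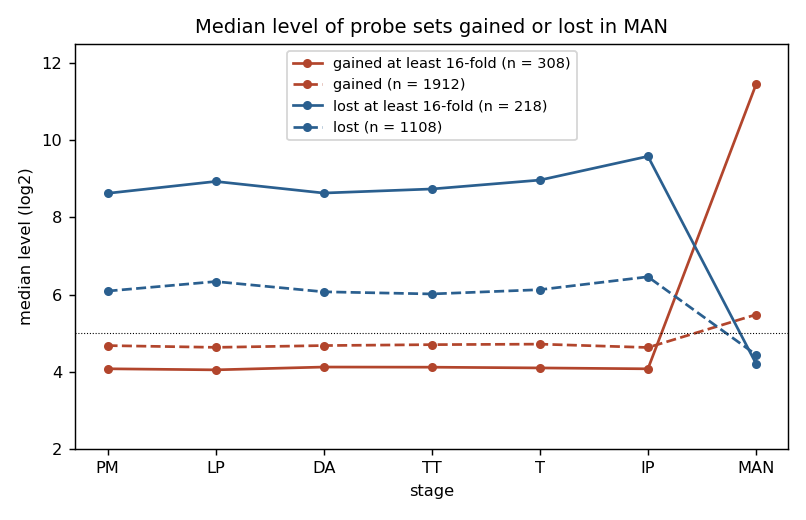
Median level (log2) at each of the 7 stages of the probe sets gained (red) or lost (blue) in MAN, for all of them (dashed) and for those that changed at least 16-fold (solid), with n in the key and the boundary of expression at 5 dotted. The choice of the sets fixes their IP and MAN values, and the medians of the earlier stages lie flat, at 4.05 to 4.12 for the strong gains and 8.63 to 8.97 for the strong losses.

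Of the 100 brightest probe sets of MAN, 17 were below 5 in IP, and the same 17 were below 5 in all 6 other stages. Of the 100 brightest of IP, 6 were below 5 in MAN, and 14 probe sets were in both lists. The brightest gained probe set, Ta.11957.1.A1_s_at, had levels of 15.04, 14.97 and 15.08 in MAN and of 4.61, 4.89 and 4.71 in IP, and its earlier stages had means of 4.82 to 4.97. Ta.23693.1.S1_at rose from 3.75, 3.63 and 3.45 to 14.41, 14.26 and 14.27 (change at least 10.70), and Ta.3717.1.A1_at from 3.48, 3.24 and 3.32 to 14.04, 14.06 and 14.00 (change at least 10.69). TaAffx.119946.1.A1_s_at was the third brightest gained, at 14.57, 14.55 and 14.62 in MAN after 4.73, 4.67 and 4.71 in IP. For these 4 probe sets every mean of the 6 other stages lay below 5. None has a gene symbol, and of the 100 largest gains of all only 4 probe sets have one.

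Among the deepest losses were transcripts that had come on late. Ta.3079.1.S1_at was measured in IP alone, at 12.71, 13.51 and 13.71, with means of 3.09 to 3.33 in every earlier stage, and it was back at 3.29, 3.26 and 3.43 in MAN. TaAffx.59835.1.S1_x_at had means of 3.17 to 3.33 up to TT, 9.88 in T and 13.95 in IP, and levels of 3.22, 3.20 and 3.42 in MAN. TaAffx.93253.1.A1_at was at 7.87 in TT, 13.60 in T and 14.03 in IP, and at 3.30, 3.45 and 3.35 in MAN. Others had a longer history. Ta.3013.1.A1_at, at 5.54 to 5.81 from PM to DA and at 14.54 in IP, fell to 4.53, 4.36 and 4.43, and Ta.652.1.S1_at, at 9.38 in PM and 13.40 in IP, fell to 3.88, 3.56 and 3.44. No array of MAN was within 9 units of an IP array in any of these 5. In each of them the IP level of replicate 1 was below the other IP levels. Of the 100 largest losses 5 have a gene symbol.

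The platform annotation gives 1 symbol each to 1273 probe sets, of which 466 were higher and 494 lower in MAN. At least 2-fold, 165 were higher (13.0%) and 319 lower (25.1%), against 7.97% and 14.5% of all probe sets. These probe sets belong to 771 genes. Of the 298 genes with more than 1 probe set, 74 had all of them called higher, 63 had all of them lower, and 38 had calls in both directions. The named transcripts below are described by role, and each count called in a list may be read against the 38.6% higher and 25.6% lower of all probe sets. Probe sets added below because they measure a gene already named were chosen after their values were seen.

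**Figure D4:**
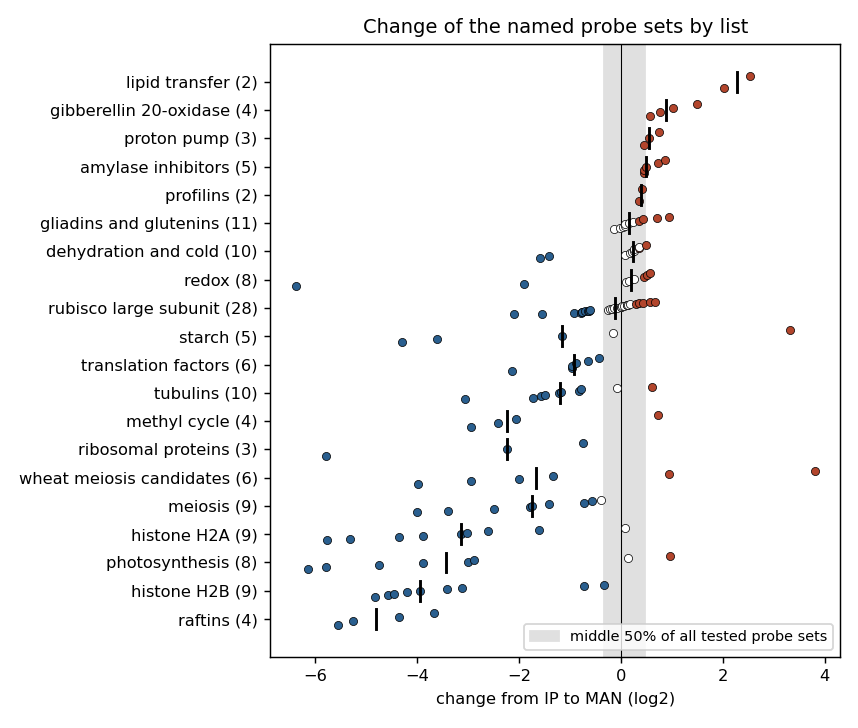
Change from IP to MAN (log2) of every probe set of 20 gene lists, with the number of probe sets in brackets, red for called higher, blue for called lower, white for not called and a black bar at the median of the list. The grey band spans the quartiles of all tested probe sets, from -0.33 to 0.47. The raftin, histone, photosynthesis and meiosis lists lie mostly to its left, while some members of the histone H2A, photosynthesis and tubulin lists lie to the right of 0.

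Of the lists, that of tapetum transcripts had the deepest median loss. All 4 raftin probe sets were lower in MAN, with a median change of -4.80. For raftin1b, Ta.4091.1.S1_s_at had levels of 13.49, 13.41 and 13.68 in IP and of 8.31, 7.47 and 8.17 in MAN, a fall by 5.54 (limma SE 0.22, adjusted p 1.3e-17), and its second probe set, Ta.4091.1.S1_x_at, fell by 3.66. For raftin1a, Ta.4195.1.S1_at went from 13.51, 14.09 and 14.19 to 8.93, 8.36 and 8.75, a fall by 5.25 (limma SE 0.173, adjusted p 2.1e-19), and Ta.4176.1.S1_x_at fell by 4.35. All of these had been higher in IP than in any earlier stage, with means of 12.13 to 13.93, and they remained above 7 on every MAN array.

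Transcripts of photosynthesis and of the chloroplast fell too. Of 8 probe sets of photosynthesis 6 were lower, 1 was higher and 1 was not called, with a median of -3.43. PRK encodes phosphoribulokinase of the Calvin cycle. Its probe set Ta.23158.1.S1_at went from 10.78, 11.15 and 11.27 to 4.68, 5.16 and 4.91, a fall by at least 6.15 (limma SE 0.136, adjusted p 3.7e-23). PsbP and PsbO are extrinsic proteins of the oxygen-evolving complex of photosystem II. PsbP (Ta.85.1.S1_at) fell from 12.33, 12.49 and 12.65 to 6.84, 6.64 and 6.62, and PsbO (Ta.841.1.S1_a_at) from 12.30, 12.19 and 12.43 to 7.49, 7.31 and 7.87. Both were far below IP on each array, by 5.79 and 4.75, and another probe set of PsbP, TaAffx.120874.1.S1_x_at, changed by -2.99. The m-type thioredoxin Trx-M (Ta.136.1.S1_at), a redox protein of the chloroplast, went from 10.57, 10.78 and 11.15 to 4.63, 4.20 and 4.57, a fall by at least 6.37 (limma SE 0.195, adjusted p 4.2e-20). PRK, PsbP, PsbO and Trx-M had their highest mean of the series in IP and, of the stages before MAN, their lowest in PM.

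For fructose-1,6-bisphosphatase (FBP) the probe sets moved apart. Ta.439.1.S1_at, chosen after its values were seen because it measures the same gene, fell from 9.01, 9.07 and 8.96 to 6.47, 6.06 and 5.83 (change -2.89). TaAffx.106041.1.S1_at had 8.54, 7.85 and 7.64 in IP and 9.15, 9.04 and 8.75 in MAN, a change of 0.97 (limma SE 0.233, adjusted p 0.00078) that was -0.44 with spike scaling. The large subunit of rubisco is encoded in the chloroplast and has 28 probe sets, of which 10 were lower, 5 higher and 13 not called, with a median of -0.11. Of all probe sets 64.3% were called, a larger share than the 15 of 28 here. Their IP means ran from 3.26 to 14.90, and 2 of them changed by at least 2-fold, both downwards. The higher count moved to 3 without IP replicate 2 or 3 and to 2 without MAN replicate 2.

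Core histones, which package newly made DNA, fell nearly throughout. Of 9 probe sets of histone H2A 8 were lower and none higher, with a median of -3.14, and of 9 of histone H2B all were lower, with a median of -3.94. For wcH2A-9, Ta.27657.14.S1_s_at went from 11.21, 11.52 and 11.82 to 5.96, 5.89 and 5.38, a fall by 5.78 (limma SE 0.158, adjusted p 3.9e-21). Another probe set of the gene, Ta.27657.6.S1_x_at, fell by 1.60 and stayed at 10.93, 10.79 and 10.82. For wcH2B-8, Ta.7378.17.S1_x_at went from 9.59, 9.46 and 9.70 to 5.31, 4.05 and 4.90 (change at least -4.83). The MAN arrays of these 3 probe sets were all below the IP arrays, though wcH2B-8 spread over more than 1 unit in MAN.

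Probe sets of other histone genes ranged from a deep fall to no call. For wcH2A-3, Ta.27192.1.S1_at fell by 3.88, from 9.86, 10.46 and 10.67 to 6.79, 6.38 and 6.17, while Ta.27192.1.S1_s_at was at 6.59, 6.47 and 6.88 in IP and 6.62, 6.78 and 6.76 in MAN (change 0.07, or -1.34 with spike scaling, adjusted p 0.68 in limma). For the histone H2B gene wcH2B-6, Ta.27708.1.S1_at was at 11.97, 12.29 and 12.21 after 12.55, 12.18 and 12.71 in IP (change -0.32, adjusted p 0.028 in limma). Its arrays overlap between the stages, and the call was lost with the methods' t-test, the replicate block, the fit to the 6 arrays alone, or without IP replicate 1 (change -0.29), IP replicate 3 (-0.21) or MAN replicate 1 (-0.23). The second probe set, Ta.27708.1.S1_x_at, had 12.71, 12.54 and 12.97 against 11.75, 11.76 and 12.54 (change -0.72), and was not called by the methods' t-test. Probe sets that end in _s_at or _x_at can bind transcripts of related genes, and histone genes are alike in sequence, so a level here may belong to more than 1 copy.

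Transcripts of meiosis were still present in IP and went down further. Of the 9 meiotic genes measured by Q-PCR in the study, 8 were lower and none higher, with a median of -1.75. DMC1, the recombinase specific to meiosis (Ta.30833.1.S1_at), went from 9.47, 9.61 and 9.81 to 5.83, 5.42 and 5.66, a fall by 3.99 (limma SE 0.114, adjusted p 1.0e-20). RPA (Ta.6986.1.S1_at), which coats single-stranded DNA, fell by 3.40, from 8.65, 8.41 and 8.71 to 4.99, 5.22 and 5.36. ASY1 (Ta.9186.1.S1_at), a protein of the chromosome axis, fell by 2.48 to 6.46, 6.28 and 5.91. The arrays of these 3 genes do not overlap between the stages. RAD54 (Ta.7706.1.S1_at, change -1.79), PHS1 (TaAffx.47591.1.S1_at, -1.75) and MSH4 (Ta.25861.1.A1_at, -1.40) fell less. RAD51C (Ta.10540.1.S1_at) and RAD51B (Ta.7197.1.A1_at) had changes of -0.73 and -0.56, both called in limma and neither by the methods' t-test, and RAD51B was at -0.15 and not called after quantile normalization. MSH6 (Ta.24096.1.S1_at), below 5 on all 6 arrays, was at 4.93, 4.41 and 4.61 in IP and at 4.07, 3.97 and 4.72 in MAN. It was not called (change -0.40, adjusted p 0.11 in limma), but it was without MAN replicate 3 (-0.63), with median centring (-0.50), quantile normalization (-0.58) or spike scaling (-1.81). Its other probe set, Ta.24096.1.A1_at, was not called (0.11, or -1.31 with spike scaling).

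Wheat meiosis candidates of the same Q-PCR set split in direction. WMC10 (TaAffx.38162.1.S1_at) went from 9.62, 9.65 and 9.72 to 13.32, 13.52 and 13.56, a rise by 3.80 (limma SE 0.141, adjusted p 2.7e-18), and WMC3 (Ta.28776.1.A1_at) from 6.11, 6.42 and 6.52 to 7.28, 7.24 and 7.36 (change 0.94, or -0.48 with spike scaling). WM5 (Ta.25342.1.S1_at) fell by 3.98, from 12.72, 13.37 and 13.48 to 9.09, 9.20 and 9.35. WMC6 (Ta.3385.1.A1_at), WMC4 (Ta.30383.1.A1_at) and WMC5 (Ta.3224.2.S1_at) changed by -2.94, -2.0 and -1.33. WMC10 had dipped to a mean of 5.64 in LP and reached its highest mean of the series in MAN.

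Starch transcripts moved in both directions. GBSS, the granule-bound starch synthase that makes amylose (Ta.2795.1.S1_a_at), had levels of 4.39, 4.61 and 4.79 in IP and of 7.78, 8.11 and 7.83 in MAN. It rose by at least 3.31 (limma SE 0.113, adjusted p 4.4e-19), and its earlier stages had means of 4.44 to 4.87. The beta-amylase BMY1 (Ta.3.1.S1_at), which cleaves maltose from starch chains, went from 11.75, 11.35 and 11.67 to 7.10, 7.37 and 7.39, a fall by 4.30 (limma SE 0.121, adjusted p 7.4e-21). AGP-S (Ta.242.1.S1_at), the small subunit of ADP-glucose pyrophosphorylase, went from 10.50, 10.41 and 10.51 to 9.32, 9.16 and 9.49 (change -1.15). GBSS was thus off in IP and on in MAN, while the other 2 stayed above 5 at a lower level. Over the 5 probe sets of the list, 1 was higher, 3 were lower and 1 was not called, and 4 were lower with spike scaling or quantile normalization.

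Among the tested probe sets with a gene name in the annotation, the largest gain was that of WZF1 (Ta.103.1.S1_at), a zinc finger gene, with levels of 5.96, 6.12 and 6.41 in IP and of 9.89, 10.25 and 10.19 in MAN, a rise by 3.95 (limma SE 0.153, adjusted p 7.4e-18). The lipid transfer protein gene LTP3 was called higher in both probe sets, Ta.1282.4.S1_at from 5.07, 5.57 and 5.50 to 8.02, 8.02 and 7.73 (change 2.54) and Ta.1282.1.S1_x_at from 8.37, 8.36 and 8.57 to 10.35, 10.35 and 10.66 (change 2.02). With spike scaling they were 1.12 and 0.60, and the second was not called. Lipid transfer proteins carry lipids between membranes and to cell surfaces. LTP3 was also above its earlier levels in IP already, where the T means were 4.49 and 6.72. WZF1, in contrast, was lower in IP than in T (mean 7.78) before it rose.

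Gibberellin 20-oxidases make precursors of the active gibberellins, hormones of anther and pollen growth. All 4 probe sets were called higher, with a median of 0.89, but with spike scaling GA20ox1b kept a change of 0.08 and the other 3 were negative. GA20ox1b (Ta.23667.1.S1_at) went from 5.60, 5.52 and 5.62 to 7.32, 7.02 and 6.88 (change 1.49). GA20ox1a (Ta.23668.1.S1_at) went from 5.94, 6.27 and 6.18 to 7.09, 7.24 and 7.10 (change 1.02, or -0.40 under that scaling). In both the MAN arrays lay above the IP arrays by more than the spread of either stage. GA20ox1d changed by 0.57 (Ta.141.1.S1_at, or -0.85) and 0.77 (Ta.141.1.S1_x_at, or -0.65), and the first of these was not called without MAN replicate 1 (change 0.42).

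Other gains were below or near 2-fold. The fructan exohydrolases, which split fructose off fructans, were represented by 1-FEH (Ta.199.1.S1_at), at 11.42, 11.93 and 12.17 in IP and at 12.83, 12.90 and 12.85 in MAN (change 1.02, or -0.40 with spike scaling), and by 6-FEH (TaAffx.93410.1.S1_at), with a change of 0.93 (or -0.48). The 6-FEH probe sets disagreed, since Ta.9641.1.A1_a_at was lower, from 5.12, 5.14 and 5.37 to 4.75, 4.32 and 4.80 (change -0.59), though not by the methods' t-test, and Ta.30950.1.A1_x_at was not called (-0.07, or -1.49 and called). Of 4 probe sets of fructan breakdown 2 were higher, 1 lower and 1 not called. The plasma membrane proton pump ha1 was higher with 3 probe sets, Ta.28364.1.S1_at by 0.55 (or -0.87), Ta.28364.1.S1_x_at by 0.46 (or -0.96) and TaAffx.55278.1.S1_x_at by 0.76 (or -0.66). The profilin gene PRO1, whose product binds actin monomers, was bright in both stages. Its Ta.5057.3.A1_at was at 13.14, 13.68 and 13.78 in IP and at 13.88, 13.94 and 13.88 in MAN, a change of 0.36 (or -1.05). It was not called without IP replicate 1 (0.17), with median centring (0.26), quantile normalization (0.10), the replicate block, the fit to the 6 arrays alone or the methods' t-test. The other, Ta.5057.1.S1_x_at, had a change of 0.41 (or -1.01) and was not called without IP replicate 1 (0.37) or MAN replicate 1 (0.34) or with median centring (0.30). With spike scaling the gains given here for 1-FEH, 6-FEH, ha1 and PRO1 were all above the median of -1.25 over all probe sets.

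The grain genes named here had levels below 7 in both stages. The lectin WGA2 (Ta.147.1.S1_at) was at 5.86, 5.50 and 5.50 in IP and at 6.74, 6.36 and 6.52 in MAN (change 0.92, or -0.49 with spike scaling). The amylase inhibitor wmai-0.28 (Ta.1315.1.S1_at) changed by 0.87 (or -0.55), the avenin-like avnla (Ta.905.2.S1_at) by 0.98 (or -0.43), while its Ta.905.2.S1_x_at was not called (0.27, or -1.14), and the gliadin Gli-D2-16 (Ta.24114.1.S1_x_at) by 0.95 (or -0.47). Of 11 gliadin and glutenin probe sets 4 were higher and 7 not called, a share close to the 38.6% higher of all probe sets, with a median of 0.16 against 0.17 over all probe sets, and 2 were higher without MAN replicate 2. No member changed 2-fold, and their highest mean was 6.32 in IP and 7.03 in MAN. All 5 amylase inhibitor probe sets were called higher, and of 6 avenin-like ones 3 were higher and 3 not called. None of these 2 lists changed 2-fold, and none was higher with spike scaling.

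Tubulins form the microtubules of spindle and cell cortex, and of 10 probe sets 8 were lower, 1 was higher and 1 was not called, with a median of -1.19, where 25.6% of all probe sets were lower and 38.6% higher. The beta-tubulin tubb1 (Ta.212.1.S1_at) fell by 3.05, from 12.59, 13.33 and 13.45 to 10.12, 10.14 and 9.96. Tubb4 (Ta.28022.1.S1_x_at) was the exception, at 11.24, 11.57 and 11.55 in IP and 12.08, 12.08 and 12.02 in MAN (change 0.61, or -0.81 with spike scaling), while the alpha-tubulin probe set Ta.723.1.S1_at (TUBA) had a difference of -0.08 with overlapping arrays (or -1.50 and called) and another TUBA probe set, Ta.812.1.S1_x_at, was lower (-0.82). All 6 probe sets of translation factors were lower, with a median of -0.92, and the largest fall among them was that of eIF-2-beta (Ta.165.1.S1_at), from 12.01, 11.91 and 12.36 to 10.01, 9.96 and 9.92. The 3 probe sets of ribosomal proteins were lower as well. RPL9 (Ta.14183.1.S1_at), listed as CL9 in the annotation, went from 10.47, 10.30 and 10.68 to 4.42, 4.95 and 4.73, a fall by at least 5.79. RPS29 (Ta.24254.3.S1_x_at) fell by 2.22. The list was matched by name and does not separate ribosomal proteins of the cytosol from those of the chloroplast.

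The methyl cycle regenerates the methyl donor S-adenosylmethionine. Its enzyme S-adenosylhomocysteine hydrolase, SAHH, fell with both probe sets, Ta.1258.2.S1_x_at from 12.69, 12.66 and 12.84 to 10.06, 9.31 and 9.99 (change -2.95) and Ta.1258.1.S1_a_at by 2.42. PEAMT1 (Ta.1842.1.S1_a_at), a methyltransferase on the way to choline, fell by 2.05, from 13.11, 13.08 and 13.18 to 11.04, 10.91 and 11.27, against a mean of 11.41 in T. COMT1 (Ta.336.1.S1_x_at), a methyltransferase of lignin synthesis, changed by 0.72 (or -0.69 with spike scaling). SAHH and PEAMT1 were lower on every MAN array than on any IP array.

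Stress and redox transcripts did not move together. A small heat shock transcript, hsp16.9A (Ta.24332.1.S1_at) was on in IP alone, at 6.09, 6.43 and 6.47 with earlier means of 3.57 to 3.92, and fell by at least 2.85 to 3.61, 3.34 and 3.48 in MAN. The 10 probe sets of dehydrins and late embryogenesis proteins, which build up as seeds dry, had 2 lower, 2 higher and 6 not called, with a median of 0.24. The 2 lower ones were those of Em, Ta.25025.1.S1_at from 6.06, 6.92 and 6.91 to 5.37, 5.22 and 5.09 (change -1.41) and Ta.25025.1.S1_x_at by -1.59, and they were the only members of the list to change 2-fold. Another probe set of Em, Ta.25025.1.S1_s_at, was not called (0.08, or -1.33 with spike scaling). The Rab15 probe set TaAffx.46097.2.S1_at changed by 0.50 (or -0.92 with spike scaling), below 5 throughout, and was not called without IP replicate 1 (0.28), with median centring (0.39), quantile normalization (0.30) or the methods' t-test. Without IP replicate 1 no member of the list was higher, and without IP replicate 2 there were 5. The catalase gene CAT1 fell in Ta.442.1.S1_at, from 7.16, 7.15 and 7.14 to 4.98, 5.28 and 5.49, and its TaAffx.80209.1.S1_at changed by 0.50 (or -0.91). Among the tested probe sets with a gene name in the annotation, the largest fall was that of Prx1 (Ta.6572.1.S1_at), from 11.10, 11.57 and 11.90 to 4.34, 4.07 and 3.91, by at least 7.42 (limma SE 0.178, adjusted p 2.2e-22). Prx1 fell in Ta.6572.1.S1_a_at (-7.08) and Ta.6572.2.S1_at (-5.88) as well, but not in Ta.6572.3.S1_at, at 5.23, 5.32 and 5.18 in IP and 5.55, 5.46 and 5.33 in MAN (0.20, or -1.21 with spike scaling, not called).

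**Figure D5:**
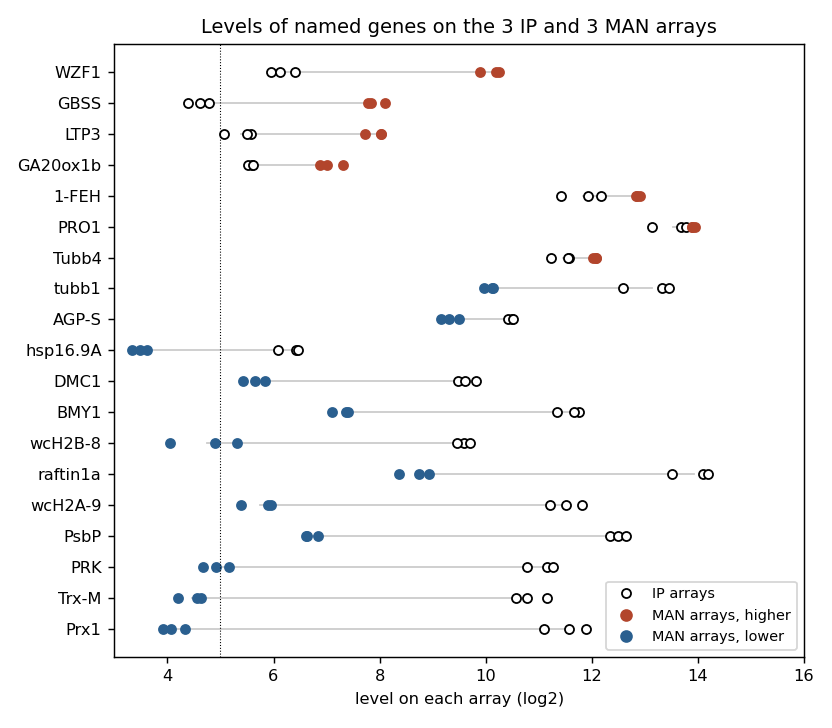
Level (log2) of 19 named genes on each of the 3 IP arrays (open) and the 3 MAN arrays (red where higher, blue where lower), with a grey line between the stage means and the boundary of expression at 5 dotted. The arrays of the stages are far apart for most genes, from WZF1, which rose by 3.95, to Prx1, which fell by at least 7.42, and close together for the profilin gene PRO1, where IP replicate 1 gives the lowest of the open points.

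Among the constant controls of the Q-PCR, 2 transcripts had been selected by the paper from these same arrays. Their small changes are therefore no independent check on the scale. Ta.9657.1.S1_at had levels of 10.90, 11.59 and 11.61 in IP and of 11.77, 11.72 and 11.77 in MAN, and Ta.28350.1.S1_a_at had 13.72, 14.38 and 14.40 against 14.50, 14.51 and 14.52. They changed by 0.39 and 0.34 and were called (adjusted p 0.011 and 0.028 in limma). In both the MAN arrays were above all IP arrays, and IP replicate 1 was the lowest. Neither was called by the methods' t-test, with the replicate block, in the fit to the 6 arrays alone or with median centring (0.28 and 0.24). Without IP replicate 1 the changes were 0.15 and 0.12 and not called, and with spike scaling they were -1.03 and -1.07. The second was not called either without any 1 of the 3 MAN arrays (0.34 to 0.35).

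The last step was set beside the step from TT to T, with which it shares no arrays. The sizes of change are a description without a test, and the steps were not matched for duration. The limma test asks only whether the signed changes of a probe set differ between the steps. The median size of change was 0.44 from IP to MAN and 0.12 from TT to T, and the upper decile of the sizes began at 1.90 and 0.35. The means differed at least 2-fold for 13736 probe sets from IP to MAN and for 640 from TT to T. For 31636 probe sets (51.7%) the change from IP to MAN differed from that from TT to T in limma, being more positive for 17967 and more negative for 13669. Among named genes the difference was 4.15 for WZF1 (adjusted p 8.4e-15 in limma), 0.98 for WMC10 (adjusted p = 0.0002) and -6.12 for raftin1b (Ta.4091.1.S1_s_at, adjusted p = 4.9e-15). The widest reversal was that of Ta.24618.2.S1_s_at, on from T and off in MAN, with a difference of -19.20. For ha1 (Ta.28364.1.S1_at, 0.17, adjusted p = 0.4), RAD51B (-0.19, adjusted p = 0.36) and GA20ox1d (Ta.141.1.S1_at, 0.39, adjusted p = 0.18) the difference did not pass.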

How the data were processed

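The authors deposited 1 table of intensity values, made with RMA, which corrects background, normalizes across arrays and condenses the probes of each set to 1 value. The values are on a linear scale, and the log2 of each was taken here. Of 61290 rows, 111 control rows (AFFX) were set aside and 61179 were tested. The authors discarded some probe sets, which carry no mark in this table and stayed in. No read depth applies to arrays, and their number, 3 per stage, limits the precision. Arrays were grouped by the stage in their titles, 1 of which misspells mature anthers.

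A linear model over all 21 arrays was fitted in limma 3.58.1 (R 4.3.3) with moderated variances (empirical Bayes, residual degrees of freedom 14, prior 10.64), for the contrast MAN minus IP and for its difference from T minus TT. P-values were adjusted by Benjamini-Hochberg over all probe sets, and an adjusted p under 0.05 was a call. The limma steps were tested on simulated data with known changes. The methods' t-test (Student's test with equal variances on the 6 arrays, p adjusted by Benjamini-Hochberg) was an alternative, as were the other fits, scalings, filters and boundaries of the closing section. The hybridization controls were 27 control rows of bacterial and phage sequence. Python 3.11.15 (numpy 2.4.6, pandas 2.3.3) gave the summaries and matplotlib 3.10.9 the plots.

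Gene names came from the platform annotation, with 1 symbol for 1273 probe sets, none for 59906 and several for none. RefSeq's gene table (assembly IWGSC CS RefSeq v2.1) gave 200 of these a name or synonym, and 17 probe sets carry names from the study's Q-PCR. Named were the 8 highest and 8 lowest changes without overlap between the arrays, the highest and lowest of each level class, the 12 highest and 12 lowest with a named gene, the 3 brightest gained and lost, all or the extreme members of each list, and the Q-PCR transcripts. FBP Ta.439.1.S1_at and other probe sets of genes already named were added after their values were seen. Not every probe set under this rule is printed. The comparison, the lists and the rule were chosen with earlier results of these data known. Lists were matched by symbol and synonym.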

Additional observations from a re-analysis of the deposited data

How the results depend on the processing

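Counts of calls depended on scaling, test and boundary. Spike scaling set equal hybridization controls on every array, and the low controls of IP replicate 1 enlarged its shift. This scaling moved the median change of all probe sets to -1.25 and gave 1854 probe sets higher and 53290 lower. Of its calls 3.36% were higher, against 60.1% as reported. The 2-fold counts by IP level, from below 5 to 11 or more, were then 330, 549, 385, 231 and 22 higher and 13947, 12114, 7949, 5890 and 3730 lower, the medians of the 2 lowest classes turned to -1.20 and -1.11, and those of the others were -1.53, -2.15 and -2.45. Under it 35 probe sets were gained and 5966 lost, and 51160 differed from the step from TT to T. No member of the photosynthesis, redox, rubisco, gliadin, tubulin or dehydration lists was higher under it, and 8 of redox, 28 of rubisco, 10 of gliadin and 10 of dehydration probe sets were lower. The sign turned for GA20ox1a (-0.40), GA20ox1d (-0.85 and -0.65), 1-FEH (-0.40), 6-FEH (-0.48), avnla (-0.43), FBP (-0.44), Gli-D2-16 (-0.47), WGA2 (-0.49), wmai-0.28 (-0.55), ha1 (-0.87, -0.96 and -0.66), PRO1 (-1.01 and -1.05), wcH2A-3 (-1.34), Tubb4 (-0.81), COMT1 (-0.69), Rab15 (-0.92), CAT1 (-0.91), WMC3 (-0.48), the Q-PCR controls (-1.03 and -1.07) and, among uncalled probe sets, Prx1 (-1.21), Em (-1.33), MSH6 (-1.31), avnla (-1.14) and both Ta.25119.1 ones (-1.38 and -1.13).

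Centring on the array median left 3 rubisco and 0 dehydration probe sets higher, with class medians of 0.13, 0.18 and -0.46 in the 3 lowest classes. Quantile normalization left 2 rubisco and 2 gliadin ones higher, 2159 in the 2-fold count of the class of 7 to 9, and medians of 0.06, 0.24, -0.06 and -0.42 in the 4 lowest classes. The methods' t-test called 14355 probe sets higher and 12245 lower, with 1 rubisco, 2 gliadin, 0 photosynthesis and 0 dehydration probe sets higher and 3 rubisco ones lower. It did not call GA20ox1d Ta.141.1.S1_at, FBP TaAffx.106041.1.S1_at or ha1 TaAffx.55278.1.S1_x_at. A fit to the MAN and IP arrays alone left 3 rubisco and 1 dehydration probe sets higher. Requiring at least 2-fold left 13735 calls, 4876 higher and 8859 lower. A boundary at 4 gave 1076 gained and 287 lost, 1 at 6 gave 2483 lost, and at least 1 past it on both sides gave 196 and 139. The 2-fold losses below 5 numbered 242 with the class from T, and 123 and 86 with it from IP replicate 2 or 3 alone and the change from the other IP arrays. The class of 7 to 9 then had a median of -0.29 from T.

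With the replicate number as a block (replicate block), 18889 probe sets were higher and 14457 lower, and 3 rubisco and 1 dehydration ones higher. Same-numbered IP and MAN arrays had correlations of deviations of -0.00, 0.06 and -0.00, against highest values of 0.07, 0.03 and 0.03 with another number. With 3 arrays a stage these values cannot settle whether same-numbered arrays share more than a number. Leaving out 1 array gave 36164 to 38180 calls, 21280 to 22739 higher, 14884 to 15664 lower, 2013 to 2297 gained and 1132 to 1281 lost, and 2 to 5 rubisco, 2 to 5 gliadin and 0 to 5 dehydration probe sets higher. With 3 arrays of 1 pool a stage, differences between plants could not be assessed.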

Other observations

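Some control rows for wheat transcripts, which were set aside before testing, differed widely between IP and MAN, and others, such as those of ubiquitin, differed little. These values are a description with no test. Actin, the subunit of actin filaments, had its 3' probe set at 4.54, 4.57 and 4.57 in IP and at 13.48, 13.37 and 13.33 in MAN, after means of 4.28 to 4.51 in the earlier stages. Its middle probe set went from 6.78, 6.86 and 6.80 to 12.78, 12.60 and 12.88. The actin arrays of the stages do not overlap. For sucrose synthase, which cleaves sucrose, the 3' probe set went from 13.71, 14.41 and 14.47 to 8.27, 8.24 and 8.11 (change -5.99), with earlier means of 9.71 to 9.97. Glucose-6-phosphate dehydrogenase, which opens the pentose phosphate pathway, changed by -7.05 in its 3' probe set, from a mean of 13.52 to 6.47. All IP arrays of both lay above all MAN arrays. The ubiquitin rows had means of 13.24, 13.47 and 13.46 in IP and of 13.23, 13.29 and 12.92 in MAN.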
